A study of Sus scrofa with 9 samples.

Results

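The genes of the translation initiation factors were followed through spermatogenesis in the pig (Sus scrofa). They were all genes of the deposited count table whose mapped symbol begins with EIF and a digit from 1 to 6, which gave 46 of 22342 genes. RNA sequencing of total RNA from testis had been done on 9 libraries, 3 each of cells labelled as spermatogonia (numbered 1, 2 and 3), spermatocytes (2, 3 and 4) and round spermatids (1, 2 and 3). Spermatogonia are the dividing stem and precursor cells, spermatocytes the cells in meiosis, and round spermatids the haploid cells that meiosis produces. No allele, agent or treatment is labelled for any of these groups, and the labels used here give no breed, age or animal, so a p-value here is set by how far these libraries scatter, and some of that scatter may be technical. In the count table the spermatocyte columns carry a pachytene heading and the spermatogonia columns a KIT receptor heading, so their assignment rests on what those words mean. Of the 46 genes, 45 passed the filter on low counts. EIF4E1B, known in other vertebrates as an oocyte form of the cap-binding protein, did not pass, with at most 0.0708 CPM in any library (counts scaled by library size and normalization factor). EIF2S3, EIF2B1, EIF3C, EIF3K, EIF5, EIF5A and EIF4EBP3 had no matched row and are not analysed here.

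In cytoplasmic initiation, eIF2 carries the initiator tRNA to the small ribosomal subunit, where eIF1, eIF1A and the multi-subunit eIF3 keep the complex open for scanning. The mRNA is brought in by eIF4F, which joins the cap-binding protein eIF4E, the scaffold eIF4G and the helicase eIF4A, and eIF4E is held back by the 4E-binding proteins (4E-BPs) until mTOR phosphorylates them. After start codon recognition eIF2 leaves bound to GDP and is reactivated by eIF2B, a step that is blocked when an eIF2 kinase phosphorylates the alpha subunit. Male germ cells are known for extensive translational control: many mRNAs made in spermatocytes and round spermatids are stored and translated later, when transcription has ceased.

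Library totals were 47963279 to 64639201 estimated counts, and round spermatids 2 was the shallowest. The initiation factor genes varied little among spermatogonia libraries, with a coefficient of variation of at most 14.2% there (EIF2AK3), up to 43.96% in spermatocytes (EIF4E3) and up to 51.98% in round spermatids (EIF3J). Round spermatids 2 stood apart from its replicates: 3.14% of its counts came from the mitochondrial genome, against 9.09 and 10.2% in round spermatids 1 and 3. Of the 45 genes, 20 were lower and 25 higher in round spermatids 2 than the mean of those libraries. EIF3J and EIF5B lay lowest, at 30.9 and 41.3% of that mean, and EIF3B and EIF3F highest, at 151 and 166%. The median size of the log2 deviation was 0.282 for these genes and 0.273 for all genes. Meiotic markers (6 of 6 genes found) summed to 735 to 770.4 CPM in spermatogonia, 2676 to 3393 CPM in spermatocytes and 209.7 to 276 CPM in round spermatids. Spermatid markers (6 of 6) summed to 1730.1 to 1774 CPM, 471 to 1511 CPM and 4787 to 7124 CPM in the same order, so in sum the libraries labelled spermatogonia held more of them than the spermatocytes did. In round spermatids 4 of the 6 were higher than in spermatogonia and 2 were lower. The lower ones, ACRV1 and SPACA1, averaged 119 and 81.8 CPM in spermatogonia and 52.7 and 40.8 CPM in round spermatids. Spermatogonial markers (6 of 6) reached 92.96 to 96.9 CPM in spermatogonia, 34.7 to 45.9 CPM in spermatocytes and 78.2 to 83.9 CPM in round spermatids, which goes only partly with the labels. KIT itself, the receptor that the column heading names, averaged 6.36 ± 0.165 CPM in spermatogonia, 7.47 ± 0.747 CPM in spermatocytes and 24.6 ± 1.54 CPM in round spermatids. GFRA1, a marker of undifferentiated spermatogonia, averaged 0.860 ± 0.0984, 0.326 ± 0.0707 and 5.35 ± 0.567 CPM in the same order. Both were highest in the libraries labelled round spermatids, as was ZBTB16, at 4.32 CPM there and 3.74 CPM in spermatogonia. UCHL1, STRA8 and DMRT1 were highest in spermatogonia, at 26.1, 5.51 and 52.0 CPM, against 1.90, 2.37 and 42.4 CPM in round spermatids. The 3 spermatogonia libraries were far more alike than those of the other stages: pairs of them had a median chi-square over genes of 0.801 to 0.861. Pairs within the other stages had 2.27 to 22, and counting alone gives 0.455. Whether they are separate animals or repeat preparations is not given in the sources used here. With them summed to 1 sample, 14 higher and 9 lower of the 45 genes were called in spermatocytes against spermatogonia, 18 higher and 16 lower in round spermatids against spermatocytes and 19 higher and 11 lower in round spermatids against spermatogonia.

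Markers of somatic testis cells also differed between the stages. Smooth muscle and myoid markers (5 of 5 found) summed to 16.2 to 17.3 CPM in spermatogonia, 8.03 to 19.4 CPM in spermatocytes and 4052 to 4927 CPM in round spermatids. Sertoli (5 of 5), endothelial (3 of 4) and leukocyte (4 of 4) markers were likewise highest in round spermatids, at 194 to 239 CPM, 157 to 179.6 CPM and 23.4 to 30.4 CPM. Leydig cell markers (4 of 5) were highest in spermatogonia, at 293 to 312 CPM, against 1.79 to 2.67 CPM in spermatocytes and 15.5 to 19.97 CPM in round spermatids. Erythrocyte markers (2 of 4) summed to at most 0.760 CPM. None of the found markers was at 0 in every library. Their part in the values below was not tested, and in bulk RNA fewer cells of a type and less RNA per cell cannot be told apart.

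Most initiation factor genes changed between any pair of stages, in both directions. A gene was called where the Benjamini-Hochberg adjusted p of edgeR's quasi-likelihood test over all 16802 genes was below 0.05. In spermatocytes against spermatogonia 23 of the 45 genes were called higher and 13 lower, where 29.3% of all genes tested were higher and 44.0% lower. In round spermatids against spermatocytes 19 were higher and 19 lower (all genes 42.7% and 36.4%). In round spermatids against spermatogonia 22 were higher and 16 lower (all genes 39.5% and 39.7%). Counting both directions, 36, 38 and 38 of the 45 genes were called in these 3 comparisons, where 73.4, 79.2 and 79.2% of all genes were. In spermatocytes the share called higher was above that of all genes and the share called lower was below it. The median log2 fold change of the 45 genes was 0.44 in spermatocytes against spermatogonia, where that of all genes was -0.32, and 31 of 45 lay above the all-gene median. In round spermatids against spermatocytes the medians were 0.17 and 0.19, and in round spermatids against spermatogonia 0.21 and 0.00, for the 45 genes and for all genes, with 20 and 28 of 45 above the all-gene median. Groups of libraries did not overlap for 41, 37 and 43 of the 45 genes in the 3 comparisons in this order, where 79.9, 78.2 and 85.2% of all genes did not overlap.

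Changes beyond 2-fold were seen for 13, 15 and 23 of the 45 genes in the 3 comparisons, and for 50.2, 61.2 and 58.2% of all genes. The direction of the smaller changes in spermatocytes depended on scaling. With factors of TMM (trimmed mean of M values), 40.0% of all calls in spermatocytes against spermatogonia were higher, with median-ratio factors 46.4%, without any factors 26.8%, and on TPM (transcript abundance scaled by gene length and library) 23.4%. The initiation factor genes called higher there numbered 23, 25, 12 and 8 under these settings. Those called lower numbered 13, 10, 16 and 15, so that without factors and on TPM more genes were lower than higher. Their median log2 fold change was 0.44, 0.63, 0.01 and -0.09 under these settings, and stayed above that of all genes by 0.318 to 0.869 in all 20 alternatives. Values given below as on TPM are differences on log2(TPM + 1), tested with limma. Of the genes called in the 3 comparisons, 16, 22 and 27 were called in every alternative. By mean CPM, 10 of the 45 genes were highest in spermatogonia, 15 in spermatocytes and 20 in round spermatids, and by mean TPM 18, 10 and 17.

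**Figure D1:**
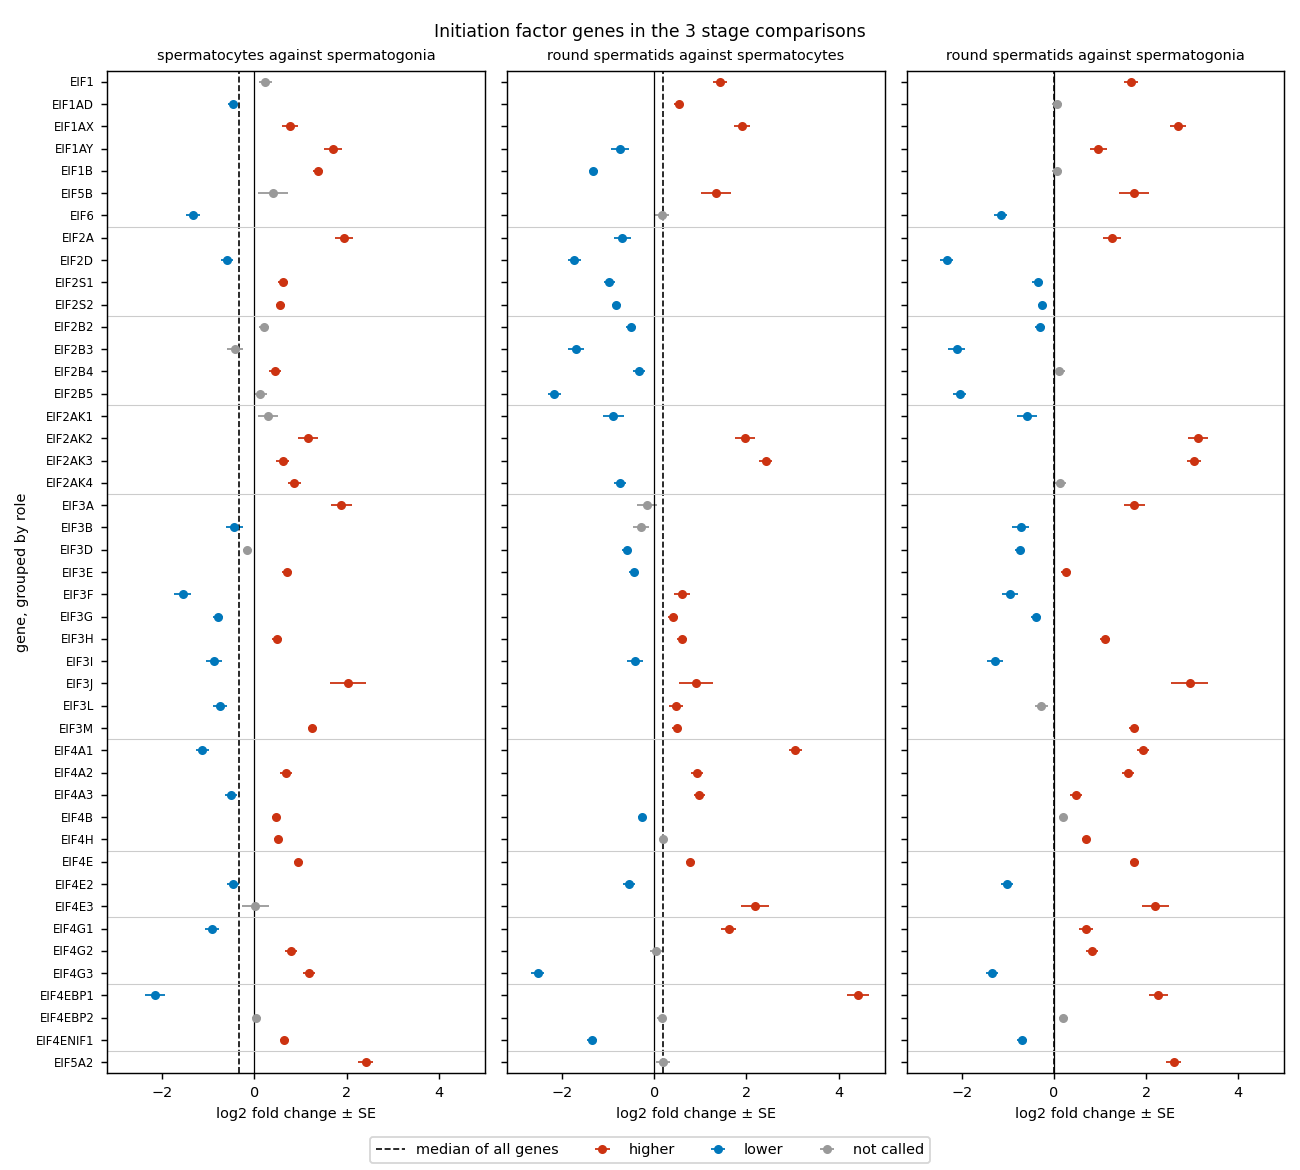
Log2 fold changes (x axis, ± SE) of the 45 initiation factor genes tested, grouped by role down the page, with 1 panel per comparison; a positive value means higher in the first-named stage, red and blue mark genes called higher and lower, grey those not called, and the dashed line the median of all 16802 genes. EIF4EBP1 lies at -2.15 in spermatocytes against spermatogonia and at 4.41 in round spermatids against spermatocytes.

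**Figure D2:**
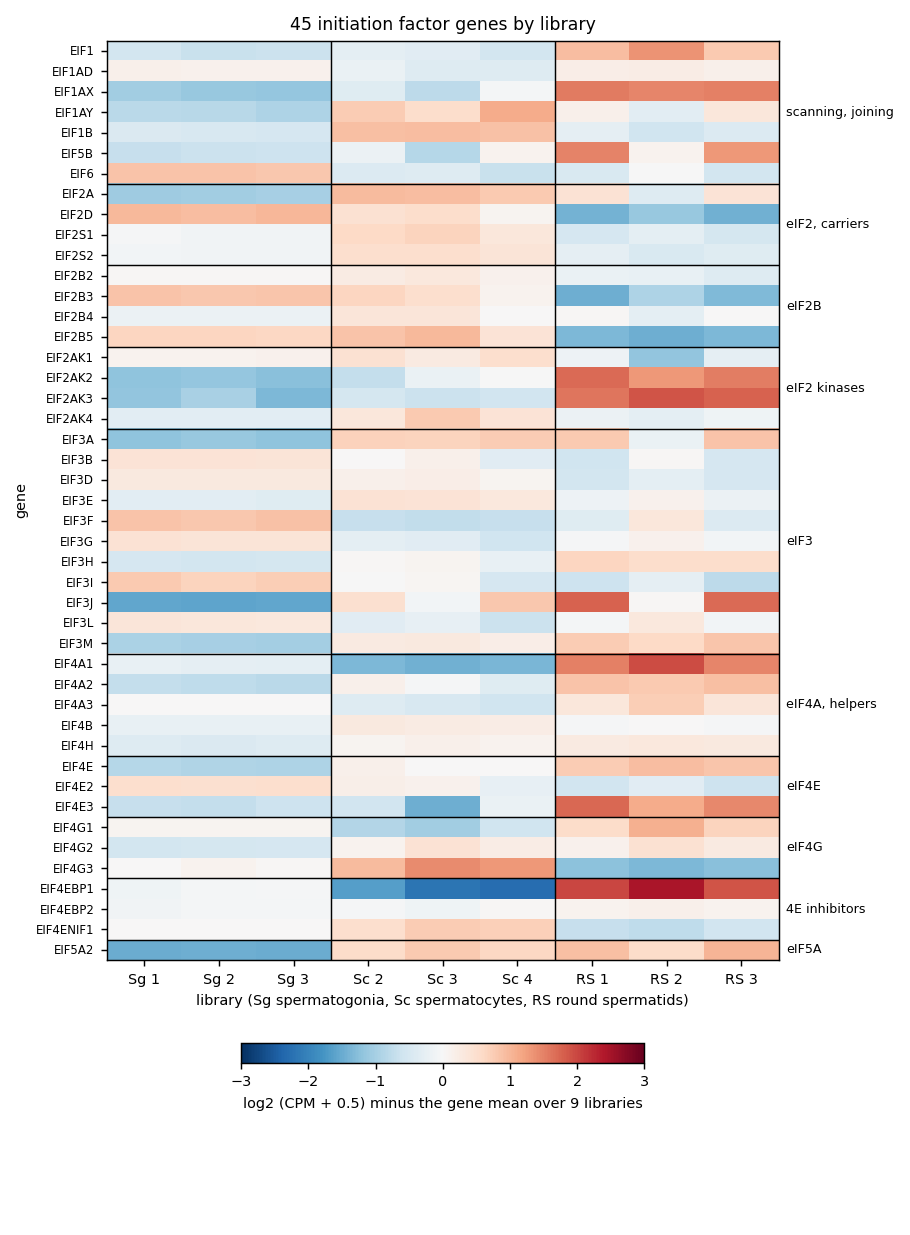
Level of each of the 45 genes (rows) in each of the 9 libraries (columns), as log2 (CPM + 0.5) minus the gene's mean over the libraries. EIF4EBP1, EIF4A1, EIF2AK2 and EIF2AK3 are high in the 3 round spermatid libraries, and EIF4G3, EIF2B5 and EIF2D are low there.

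The factors that govern scanning and start codon choice included paralogues with different courses. EIF1 (chr12:20974498-20977075, Sscrofa11.1), which keeps the scanning complex in its open state, had 362, 332 and 337 CPM in spermatogonia, 435, 418 and 364 CPM in spermatocytes and 1008, 1348 and 916 CPM in round spermatids. Every round spermatid library lay above every other library, and EIF1 was 2.69-fold higher there than in spermatocytes (log2 fold change 1.43 ± 0.150, adjusted p = 7.14e-06) and 3.17-fold higher than in spermatogonia (log2 fold change 1.66 ± 0.151, adjusted p = 2.74e-06). Its near-identical paralogue EIF1B (chr13:24575183-24577486) had 107, 103 and 102 CPM in spermatogonia, 269, 276 and 267 CPM in spermatocytes and 120.3, 95.7 and 109 CPM in round spermatids. EIF1B thus peaked in spermatocytes, with log2 fold changes of 1.38 ± 0.106 (adjusted p = 2.29e-06) in spermatocytes against spermatogonia and -1.32 ± 0.106 (adjusted p = 8.56e-07) in round spermatids against spermatocytes. Round spermatids and spermatogonia overlapped for EIF1B. Of the summed TPM of the pair, EIF1 made up 67.002 ± 0.498% in spermatogonia, 47.9 ± 2.11% in spermatocytes and 85.7 ± 3.41% in round spermatids (mean ± SD of 3 libraries each). Reads common to the pair may have been divided between them in counting.

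EIF1A, the partner of eIF1 on the small subunit, has an X-linked gene, EIF1AX (chrX:16429625-16449581), and a Y-linked one, EIF1AY (chrY:9687350-9704489). EIF1AX had 11.5, 10.6 and 10.4 CPM in spermatogonia, 18.7, 13.7 and 23.2 CPM in spermatocytes and 72.2, 67.3 and 69.4 CPM in round spermatids, so that the stages formed 3 separate steps. It was higher in spermatocytes than in spermatogonia (log2 fold change 0.77 ± 0.169, adjusted p = 0.00198, but 0.36 without normalization factors, 0.20 on TPM and 0.71 with the spermatogonia libraries summed, where it was not called) and higher again in round spermatids than in spermatocytes (log2 fold change 1.91 ± 0.172, adjusted p = 2.09e-06). Most X-linked genes went the other way in spermatocytes, the stage at which the X chromosome is known to be silenced: 43 of 415 were higher and 236 lower than in spermatogonia, with a median log2 fold change of -0.86 against -0.30 for autosomal genes. Of autosomal genes 30.2% were higher and 44.0% lower in that comparison. In round spermatids against spermatocytes 336 X-linked genes (81.0%) were higher and 11 (2.65%) lower, where 42.4% of autosomal genes were higher and 38.4% lower. X-linked genes in round spermatids also stood above spermatogonia, with 277 higher and 47 lower. Their median log2 fold change there was 1.38, against -0.02 for autosomal genes. EIF1AY had 12.03, 11.8 and 11.09 CPM in spermatogonia, 36.9, 30.97 and 46.7 CPM in spermatocytes and 23.9, 17.1 and 27.3 CPM in round spermatids. Spermatocytes were highest for EIF1AY, above spermatogonia by a log2 fold change of 1.71 ± 0.196 (adjusted p = 2.62e-05), and round spermatids were lower than spermatocytes (log2 fold change -0.75 ± 0.192, adjusted p = 0.00430). The call did not hold without normalization factors (-0.32, adjusted p = 0.142). Together these changes left EIF1AX with 39.4 ± 0.815% in spermatogonia, 25.1 ± 1.38% in spermatocytes and 68.4 ± 4.68% in round spermatids of the pair's TPM. Reads that both copies share may be split between them here too.

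EIF5B, the GTPase that joins the large ribosomal subunit, had 87.1, 89.96 and 92.3 CPM in spermatogonia, 124, 77.9 and 153 CPM in spermatocytes and 395, 153 and 348 CPM in round spermatids. Spermatocytes and spermatogonia overlapped. Round spermatids were higher than spermatocytes (log2 fold change 1.33 ± 0.327, adjusted p = 0.00327), with round spermatids 2 only just above the highest spermatocyte library. Without round spermatids 2 the log2 fold change was 1.65 (adjusted p = 1.10e-04). EIF6, which keeps the large subunit from joining too early, was highest in spermatogonia, at 193 ± 4.14 CPM, against 76.9 ± 8.24 CPM in spermatocytes and 86.3 ± 18.04 CPM in round spermatids (mean ± SD, n = 3 each). It fell in spermatocytes (log2 fold change -1.33 ± 0.150, adjusted p = 2.38e-05) and remained below spermatogonia in round spermatids (log2 fold change -1.16 ± 0.149, adjusted p = 3.75e-05). EIF1AD, a protein with an eIF1A-like domain, ranged from 15.8 to 24.5 CPM over the 9 libraries and was lowest in spermatocytes. Its fall there against spermatogonia (log2 fold change -0.47 ± 0.105, adjusted p = 0.00225) was not called without the filter on low counts, with the spermatogonia libraries summed, with the mitochondrial genome left out and with the 50 most abundant genes left out (log2 fold change -0.53 to -0.23, adjusted p 0.0515 to 0.118). Its rise in round spermatids against spermatocytes was lost on TPM. Of the 7 genes of this role, 3 were higher and 2 lower in spermatocytes against spermatogonia, 4 were higher and 2 lower in round spermatids against spermatocytes, and 4 were higher and 1 lower in round spermatids against spermatogonia.

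Of 11 further genes for scanning, ribosome recycling and start sites, 10 were tested. In spermatocytes against spermatogonia 7 were higher and 1 lower, in round spermatids against spermatocytes 4 and 5, and in round spermatids against spermatogonia 9 and 0. Of all genes, 29.3% were higher and 44.0% lower in the first of these comparisons, 42.7 and 36.4% in the second, and 39.5 and 39.7% in the third. The same shares stand beside each list of further genes given below. ABCE1, which splits ribosomes after termination, averaged 430.2 ± 43.3 CPM in spermatocytes and 37.6 ± 1.11 CPM in spermatogonia (log2 fold change 3.51 ± 0.142, adjusted p = 2.18e-07). DENR, which acts with MCTS1 in recycling and reinitiation, averaged 239 ± 11.7 CPM in spermatocytes and 43.8 ± 1.24 CPM in spermatogonia (log2 fold change 2.45 ± 0.353, adjusted p = 1.23e-04). Both thus rose in spermatocytes. DDX3X, an X-linked helicase that helps scanning through structured leaders, averaged 585 ± 48.3 CPM in round spermatids and 85.8 ± 38.001 CPM in spermatocytes (log2 fold change 2.77 ± 0.271, adjusted p = 3.95e-06). BZW2, a mimic of eIF5 that makes start site choice stricter, averaged 27.7 ± 4.19 CPM in round spermatids and 0.765 ± 0.164 CPM in spermatocytes (log2 fold change 5.17 ± 0.208, adjusted p = 8.81e-09).

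The eIF2 and eIF2B genes were lower in round spermatids than in spermatocytes, by amounts that differed between genes. EIF2S1 and EIF2S2, for the alpha and beta subunits of eIF2, and all 4 eIF2B genes found were called lower, as were EIF2A and EIF2D (8 of 8 genes, where 36.4% of all genes were lower). Without normalization factors 5 of the 8 were called: EIF2A was -0.26 (adjusted p = 0.139), EIF2B2 -0.04 (adjusted p = 0.800) and EIF2B4 0.12 (adjusted p = 0.340) on the log2 scale. The last had the other sign. EIF2S1 (chr7:91085025-91109835) had 83.4, 79.6 and 80.3 CPM in spermatogonia, 129.7, 136 and 108 CPM in spermatocytes and 60.5, 70.1 and 59.2 CPM in round spermatids. EIF2S2 (chr17:37551182-37570269) had 224, 219.7 and 221 CPM in spermatogonia, 337, 337 and 309.6 CPM in spermatocytes and 198, 172 and 185 CPM in round spermatids. In CPM both peaked in spermatocytes with no overlap between stages. The log2 fold change in round spermatids against spermatocytes was -0.98 ± 0.117 (adjusted p = 1.94e-05) for EIF2S1 and -0.83 ± 0.0951 (adjusted p = 1.44e-05) for EIF2S2. In spermatocytes against spermatogonia it was 0.62 ± 0.116 (adjusted p = 7.28e-04) for EIF2S1 and 0.56 ± 0.0947 (adjusted p = 3.47e-04) for EIF2S2. The call of EIF2S1 there was lost without normalization factors, on TPM and with the spermatogonia libraries summed (log2 fold change 0.09 to 0.55, adjusted p 0.0631 to 0.751). That of EIF2S2 was lost without normalization factors, on TPM and with the spermatogonia libraries summed (log2 fold change 0.04 to 0.50, adjusted p 0.0608 to 0.849).

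Against spermatogonia the 2 subunits were slightly lower in round spermatids, with log2 fold changes of -0.36 ± 0.116 (adjusted p = 0.0158) for EIF2S1 and -0.26 ± 0.0945 (adjusted p = 0.0264) for EIF2S2. For EIF2S1 the call was lost without any 1 of spermatogonia 1 and round spermatids 1 and 3 (log2 fold change -0.35 to -0.32, adjusted p 0.0515 to 0.0543). For EIF2S2 it was lost without any 1 of spermatogonia 1, 2 and 3 and round spermatids 3 (log2 fold change -0.28 to -0.26, adjusted p 0.0505 to 0.0762). Other settings ended each call too, and each held in 10 of 20 alternatives.

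Within eIF2B the large falls were in EIF2B3 and EIF2B5, the gamma and epsilon subunits that form its catalytic part. EIF2B5 (chr13:122060408-122070327) had 147, 147 and 143 CPM in spermatogonia, 169, 185 and 125 CPM in spermatocytes and 36.3, 33.8 and 36.1 CPM in round spermatids. Spermatocytes and spermatogonia overlapped, and round spermatids stood far below both, 4.51-fold lower than spermatocytes (log2 fold change -2.17 ± 0.144, adjusted p = 2.04e-07) and 4.12-fold lower than spermatogonia (log2 fold change -2.04 ± 0.143, adjusted p = 4.36e-07). EIF2B3 (chr6:166353918-166487581) had 41.9, 40.6 and 41.5 CPM in spermatogonia, 35.97, 32.7 and 24.6 CPM in spermatocytes and 7.99, 11.8 and 8.90 CPM in round spermatids. It was 3.25-fold lower in round spermatids than in spermatocytes (log2 fold change -1.70 ± 0.179, adjusted p = 7.26e-06) and 4.32-fold lower than in spermatogonia (log2 fold change -2.11 ± 0.181, adjusted p = 1.80e-06). EIF2B2 and EIF2B4, the beta and delta subunits of the regulatory part, differed less. EIF2B2 averaged 30.1 ± 0.212 CPM in spermatogonia, 34.7 ± 2.35 CPM in spermatocytes and 24.5 ± 1.71 CPM in round spermatids, and EIF2B4 28.6 ± 0.117 CPM in spermatogonia, 38.8 ± 5.13 CPM in spermatocytes and 30.9 ± 3.80 CPM in round spermatids. In round spermatids against spermatocytes their log2 fold changes were -0.50 ± 0.105 (adjusted p = 0.00120) for EIF2B2 and -0.33 ± 0.133 (adjusted p = 0.0421) for EIF2B4. The EIF2B4 libraries of these stages overlapped, and its call was lost without any 1 of spermatogonia 1, 2 and 3, spermatocytes 2 and 3 and round spermatids 2 (log2 fold change -0.34 to -0.23, adjusted p 0.0625 to 0.119), holding in 11 of 20 alternatives. EIF2B4 was also called higher in spermatocytes than in spermatogonia (log2 fold change 0.44 ± 0.133, adjusted p = 0.0124), but was -0.09 (adjusted p = 0.626) on TPM, with the other sign. Against spermatogonia the log2 fold change of EIF2B2 was -0.30 ± 0.105 (adjusted p = 0.0237), and its call was lost without any 1 of spermatogonia 1, 2 and 3 and round spermatids 3 (log2 fold change -0.31 to -0.25, adjusted p 0.0599 to 0.0792) and held in 9 of 20 alternatives, while EIF2B4 was not called.

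EIF2A and EIF2D, which have been reported to deliver initiator tRNA without eIF2, had different courses. EIF2A (chr13:90761453-90804274) had 29.8, 30.2 and 30.9 CPM in spermatogonia, 121, 119.7 and 109 CPM in spermatocytes and 84.6, 47.7 and 83.97 CPM in round spermatids. It was higher in spermatocytes than in spermatogonia (log2 fold change 1.94 ± 0.196, adjusted p = 1.15e-05), lower in round spermatids than in spermatocytes (log2 fold change -0.69 ± 0.190, adjusted p = 0.00657), and still higher in round spermatids than in spermatogonia (log2 fold change 1.25 ± 0.193, adjusted p = 1.44e-04). Round spermatids 2 was the lowest of its stage, and without it the log2 fold change of EIF2A against spermatocytes was -0.47 (adjusted p = 4.89e-04). EIF2D (chr9:67240586-67261250) had 76.2, 73.7 and 77.3 CPM in spermatogonia, 53.1, 56.01 and 41.01 CPM in spermatocytes and 14.2, 17.2 and 13.9 CPM in round spermatids. It fell at each stage, with log2 fold changes of -0.60 ± 0.138 (adjusted p = 0.00270) in spermatocytes against spermatogonia and -1.73 ± 0.142 (adjusted p = 1.03e-06) in round spermatids against spermatocytes. The first of these was lost without the filter on low counts, with the mitochondrial genome left out and with the 50 most abundant genes left out (log2 fold change -0.37 to -0.35, adjusted p 0.0637 to 0.0716). In round spermatids EIF2D was 5.02-fold lower than in spermatogonia (log2 fold change -2.33 ± 0.145, adjusted p = 2.02e-07).

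**Figure D3:**
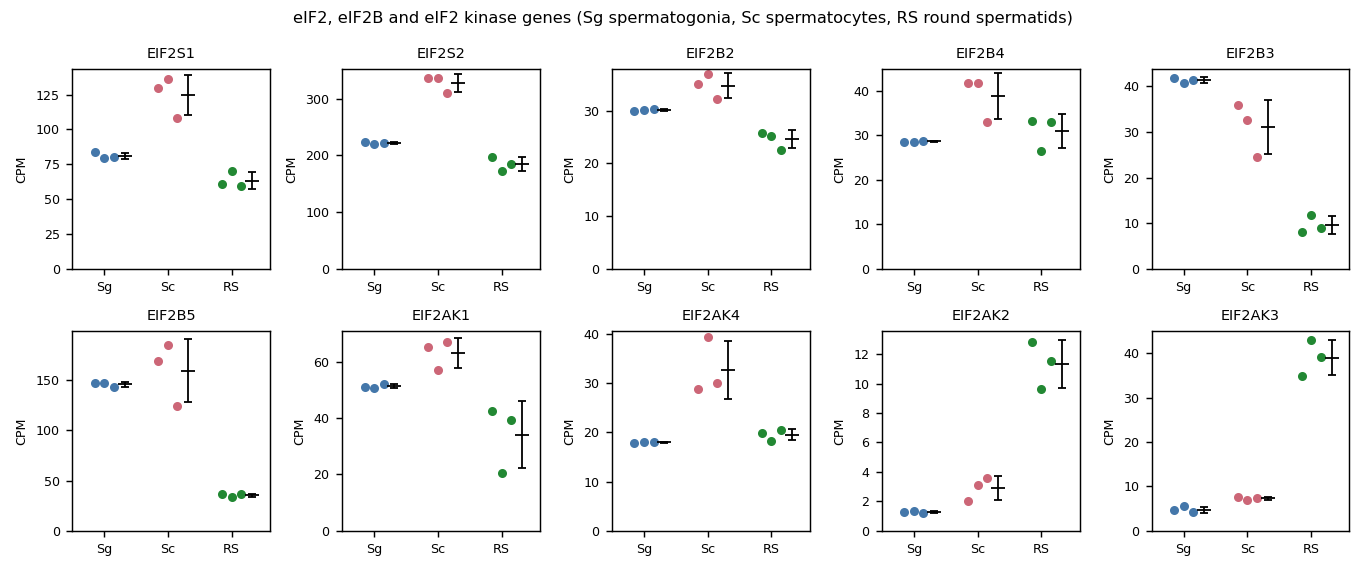
CPM (y axis, from 0) of 2 eIF2, 4 eIF2B and 4 eIF2 kinase genes, with 1 point per library and the mean ± SD of the 3 libraries of each stage beside them. EIF2B5 lies between 33.8 and 36.3 CPM in round spermatids, and EIF2AK3 between 34.9 and 42.9 CPM, above every library of the other stages.

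Of the kinases that phosphorylate eIF2 alpha, EIF2AK1 and EIF2AK4 were lower in round spermatids than in spermatocytes, and EIF2AK2 and EIF2AK3 higher. EIF2AK1 (HRI, known as a heme-regulated kinase) had 50.9, 50.7 and 52.02 CPM in spermatogonia, 65.1, 57.1 and 67.05 CPM in spermatocytes and 42.4, 20.6 and 39.3 CPM in round spermatids. EIF2AK4 (GCN2, which senses uncharged tRNA) had 17.9, 18.1 and 17.98 CPM in spermatogonia, 28.7, 39.5 and 30.04 CPM in spermatocytes and 19.9, 18.3 and 20.5 CPM in round spermatids. Both were lower in round spermatids than in spermatocytes, with log2 fold changes of -0.89 ± 0.223 (adjusted p = 0.00388) for EIF2AK1 and -0.74 ± 0.136 (adjusted p = 4.63e-04) for EIF2AK4. For EIF2AK4 the call was lost without normalization factors (-0.28, adjusted p = 0.0663). EIF2AK1 in round spermatids 2 was 50.4% of the mean of the other round spermatid libraries, and without it the value for EIF2AK1 was -0.63 (adjusted p = 2.21e-04). Against spermatogonia the log2 fold change of EIF2AK1 was -0.59 ± 0.222 (adjusted p = 0.0323), a call lost without any 1 of spermatogonia 1, 2 and 3 (log2 fold change -0.60 to -0.58, adjusted p 0.0620 to 0.0686), and without round spermatids 2 it was -0.32 (adjusted p = 0.0105). EIF2AK4 was higher in spermatocytes than in spermatogonia (log2 fold change 0.86 ± 0.136, adjusted p = 2.22e-04), though not on TPM at 0.30 (adjusted p = 0.203), and was not called in round spermatids against spermatogonia.

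EIF2AK3 (PERK, chr3:57423894-57506247), the kinase of the endoplasmic reticulum stress response, had 4.66, 5.46 and 4.12 CPM in spermatogonia, 7.55, 6.92 and 7.33 CPM in spermatocytes and 34.9, 42.9 and 39.1 CPM in round spermatids. It was 5.36-fold higher in round spermatids than in spermatocytes (log2 fold change 2.42 ± 0.142, adjusted p = 8.80e-08) and 8.20-fold higher than in spermatogonia (log2 fold change 3.04 ± 0.145, adjusted p = 4.31e-08). EIF2AK2 (PKR, chr3:103041029-103096741), which is activated by double-stranded RNA, had 1.29, 1.36 and 1.24 CPM in spermatogonia, 2.02, 3.10 and 3.58 CPM in spermatocytes and 12.8, 9.60 and 11.5 CPM in round spermatids. Its level stepped up from stage to stage, with log2 fold changes of 1.16 ± 0.221 (adjusted p = 8.01e-04) in spermatocytes against spermatogonia, where TPM gave 0.28 (adjusted p = 0.118), and 1.97 ± 0.213 (adjusted p = 8.86e-06) in round spermatids against spermatocytes. Of the summed TPM of the 4 kinases, EIF2AK1 made up 75.4 ± 0.877% in spermatogonia, 67.95 ± 4.68% in spermatocytes and 39.7 ± 9.66% in round spermatids, and EIF2AK3 5.32 ± 0.758% in spermatogonia, 5.95 ± 0.262% in spermatocytes and 35.9 ± 8.48% in round spermatids. The somatic markers named above were also highest in round spermatids, the myoid ones at 4052 to 4927 CPM against 8.03 to 19.4 CPM in spermatocytes, and their part in the EIF2AK2 and EIF2AK3 values was not tested.

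Of 9 other genes of the eIF2 stress response, 7 were tested. In spermatocytes against spermatogonia 3 were higher and 2 lower, in round spermatids against spermatocytes 3 and 3, and in round spermatids against spermatogonia 3 and 2. PPP1R15A (GADD34), which directs a phosphatase to eIF2 alpha, averaged 1116 ± 76.03 CPM in round spermatids and 15.4 ± 3.74 CPM in spermatocytes (log2 fold change 6.18 ± 0.202, adjusted p = 2.74e-09), a difference of 72.5-fold. TRIB3, a pseudokinase induced in the same response, averaged 43.9 ± 7.40 CPM in round spermatids and 1.01 ± 0.213 CPM in spermatocytes (log2 fold change 5.43 ± 0.203, adjusted p = 5.66e-09). Myoid, Sertoli, endothelial and leukocyte markers were also highest in round spermatids, and their part in the PPP1R15A and TRIB3 values was not tested. Lower in round spermatids was DNAJC3, an inhibitor of eIF2 kinases, at 79.7 ± 7.09 CPM in round spermatids and 287 ± 25.3 CPM in spermatocytes (log2 fold change -1.85 ± 0.111, adjusted p = 1.04e-07). Against spermatogonia GCN1, the activator of GCN2, averaged 73.7 ± 15.6 CPM in round spermatids and 194 ± 4.68 CPM in spermatogonia (log2 fold change -1.40 ± 0.160, adjusted p = 1.51e-05).

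The 11 eIF3 genes found did not move as one. In spermatocytes against spermatogonia 5 were higher and 5 lower, in round spermatids against spermatocytes 6 were higher and 3 lower, and in round spermatids against spermatogonia 5 were higher and 5 lower. EIF3A, EIF3E, EIF3H, EIF3J and EIF3M were higher in spermatocytes than in spermatogonia, and EIF3B, EIF3F, EIF3G, EIF3I and EIF3L were lower. EIF3A (chr14:128967645-129007168), the largest subunit and a core of the complex, had 159.8, 168 and 159 CPM in spermatogonia, 596, 587 and 622 CPM in spermatocytes and 636, 323 and 666 CPM in round spermatids. It was 3.70-fold higher in spermatocytes (log2 fold change 1.89 ± 0.229, adjusted p = 3.79e-05), and round spermatids overlapped with spermatocytes. EIF3M, a subunit of the octamer that EIF3A organises, averaged 28.5 ± 0.652 CPM in spermatogonia, 67.9 ± 1.90 CPM in spermatocytes and 95.1 ± 7.77 CPM in round spermatids, higher in spermatocytes than in spermatogonia (log2 fold change 1.25 ± 0.0993, adjusted p = 2.65e-06). EIF3F (chr9:1291660-1297987), which like EIF3H carries an MPN domain, had 282, 273 and 283 CPM in spermatogonia, 95.8, 93.4 and 95.8 CPM in spermatocytes and 119.8, 196 and 117 CPM in round spermatids. It was 2.94-fold lower in spermatocytes than in spermatogonia (log2 fold change -1.56 ± 0.182, adjusted p = 3.04e-05). In round spermatids EIF3F was still lower than in spermatogonia (log2 fold change -0.95 ± 0.180, adjusted p = 6.23e-04), but higher than in spermatocytes (log2 fold change 0.60 ± 0.179, adjusted p = 0.00971), a value that was 0.32 (adjusted p = 0.00140) without round spermatids 2. It was not called without the filter on low counts, on TPM, with the mitochondrial genome left out and with the 50 most abundant genes left out (log2 fold change 0.42 to 0.47, adjusted p 0.0736 to 0.214).

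EIF3J (chr1:126998613-127019264), a loosely bound subunit that also acts in ribosome recycling, had 23.5, 22.9 and 23.4 CPM in spermatogonia, 97.8, 66.2 and 122 CPM in spermatocytes and 238, 71.6 and 226 CPM in round spermatids. All spermatocyte and round spermatid libraries were above spermatogonia, but round spermatids 2 fell inside the range of the spermatocytes. Against spermatogonia EIF3J was 4.10-fold higher in spermatocytes (log2 fold change 2.03 ± 0.390, adjusted p = 8.39e-04) and 7.68-fold higher in round spermatids (log2 fold change 2.94 ± 0.403, adjusted p = 6.03e-05). Against spermatocytes round spermatids were only just called (log2 fold change 0.91 ± 0.377, adjusted p = 0.0466), in 4 of 20 alternatives. The call was lost without any 1 of spermatogonia 1, 2 and 3, spermatocytes 2 and 3 and round spermatids 1 and 3 (log2 fold change 0.64 to 0.92, adjusted p 0.0618 to 0.173), and without round spermatids 2 the value was 1.28 (adjusted p = 2.82e-04). EIF3H, by contrast, was higher at each step in CPM with no overlap, averaging 106 ± 2.24 CPM in spermatogonia, 149.7 ± 16.5 CPM in spermatocytes and 227 ± 10.6 CPM in round spermatids. In TPM it averaged 187 ± 2.94 TPM in spermatogonia, 183 ± 11.4 TPM in spermatocytes and 268 ± 77.6 TPM in round spermatids. The step in spermatocytes against spermatogonia (log2 fold change 0.50 ± 0.106, adjusted p = 0.00165) was -0.03 (adjusted p = 0.889) on TPM and 0.07 (adjusted p = 0.558) without normalization factors.

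EIF3B, the scaffold that binds EIF3I and EIF3G, averaged 151 ± 1.44 CPM in spermatogonia, 112 ± 18.99 CPM in spermatocytes and 91.4 ± 23.1 CPM in round spermatids. Its fall in spermatocytes (log2 fold change -0.44 ± 0.179, adjusted p = 0.0475) was called in 6 of 20 alternatives and lost without any 1 of spermatogonia 1, 2 and 3, spermatocytes 2 and 4 and round spermatids 3 (log2 fold change -0.47 to -0.31, adjusted p 0.0507 to 0.151). In round spermatids it was lower than in spermatogonia (log2 fold change -0.72 ± 0.179, adjusted p = 0.00361), and without round spermatids 2 it was also called lower than in spermatocytes, at -0.52 (adjusted p = 0.00562). EIF3I, a WD-repeat subunit, averaged 101 ± 4.10 CPM in spermatogonia, 55.5 ± 10.98 CPM in spermatocytes and 41.6 ± 7.81 CPM in round spermatids. It was lower in spermatocytes than in spermatogonia (log2 fold change -0.87 ± 0.171, adjusted p = 9.69e-04). Round spermatids overlapped with spermatocytes for EIF3I, and that call (log2 fold change -0.41 ± 0.170, adjusted p = 0.0447) was lost without any 1 of spermatogonia 1, 2 and 3, spermatocytes 2 and 3 and round spermatids 1 and 3 (log2 fold change -0.42 to -0.31, adjusted p 0.0602 to 0.148) and turned to 0.07 (adjusted p = 0.750) without normalization factors. EIF3G, an RNA-binding subunit, averaged 206 ± 3.82 CPM in spermatogonia, 118 ± 12.9 CPM in spermatocytes and 157 ± 11.4 CPM in round spermatids. EIF3L averaged 155 ± 2.48 CPM in spermatogonia, 92.2 ± 13.4 CPM in spermatocytes and 128 ± 21.01 CPM in round spermatids, so both were lowest in spermatocytes. EIF3G and EIF3L rose in round spermatids against spermatocytes (0.41 and 0.47), but the rise was lost with median-ratio factors, without the filter on low counts, with DESeq2, on TPM, with the mitochondrial genome left out and with the 50 most abundant genes left out (log2 fold change 0.20 to 0.32, adjusted p 0.0537 to 0.225) for EIF3G. For EIF3L the rise was lost with median-ratio factors, without the filter on low counts, with DESeq2, on TPM, with the replicate block, with the mitochondrial genome left out and with the 50 most abundant genes left out (log2 fold change 0.27 to 0.38, adjusted p 0.0563 to 0.218).

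EIF3E averaged 154 ± 2.85 CPM in spermatogonia, 253 ± 12.01 CPM in spermatocytes and 185 ± 22.3 CPM in round spermatids and so was highest in spermatocytes in CPM. Its small rise in round spermatids against spermatogonia (log2 fold change 0.26 ± 0.107, adjusted p = 0.0424) was called in 8 of 20 alternatives and had the other sign on TPM, at -0.35 (adjusted p = 0.199). It was lost without any 1 of spermatogonia 1, 2 and 3, spermatocytes 2 and 3 and round spermatids 2 (log2 fold change 0.16 to 0.26, adjusted p 0.0511 to 0.140). Its rise in spermatocytes against spermatogonia (log2 fold change 0.71 ± 0.108, adjusted p = 1.71e-04) was lost without normalization factors (0.29, adjusted p = 0.0942) and on TPM (0.19, adjusted p = 0.511). The fall of EIF3E in round spermatids against spermatocytes (log2 fold change -0.45 ± 0.107, adjusted p = 0.00285) was lost without normalization factors (0.03, adjusted p = 0.880) and on TPM (-0.54, adjusted p = 0.0639). EIF3D, a subunit known to bind the cap of some mRNAs, averaged 354 ± 0.697 CPM in spermatogonia, 318 ± 14.9 CPM in spermatocytes and 211 ± 19.9 CPM in round spermatids. It was not called in spermatocytes against spermatogonia and was lower in round spermatids than in spermatocytes (log2 fold change -0.59). This call ended without normalization factors (-0.12, adjusted p = 0.409). On the TPM scale, which allows for gene length, the highest subunit over the lowest was 16.8 to 17.7-fold in spermatogonia, 18.9 to 48.9-fold in spermatocytes and 22.1 to 115-fold in round spermatids. EIF3F had the highest level of the 11 in the spermatogonia libraries and EIF3J in the other 6, where EIF3B was the lowest. In CPM EIF3I was below EIF3B there, at 55.5 against 112 CPM in spermatocytes and 41.6 against 91.4 CPM in round spermatids. EIF3J alone made up 9.91 to 9.99% of the summed TPM of the 11 genes in spermatogonia, 25.1 to 40.7% in spermatocytes, and 53.4, 24.4 and 52.6% in round spermatids 1, 2 and 3. In CPM, which do not allow for gene length, EIF3J had the lowest mean of the 11 in spermatogonia (23.3 CPM). In round spermatids it averaged 179 CPM, where EIF3A had 542 CPM. The rank and share of EIF3J thus rest on the gene length used for TPM. That length is not listed in the sources used here, but the 2 scales show it to be short. In spermatogonia EIF3J averaged 23.3 CPM and 171 TPM, and EIF3A 163 CPM and 66.1 TPM, so EIF3J was given much the shorter length. These levels are of mRNA and say nothing of subunits in the assembled complex.

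**Figure D4:**
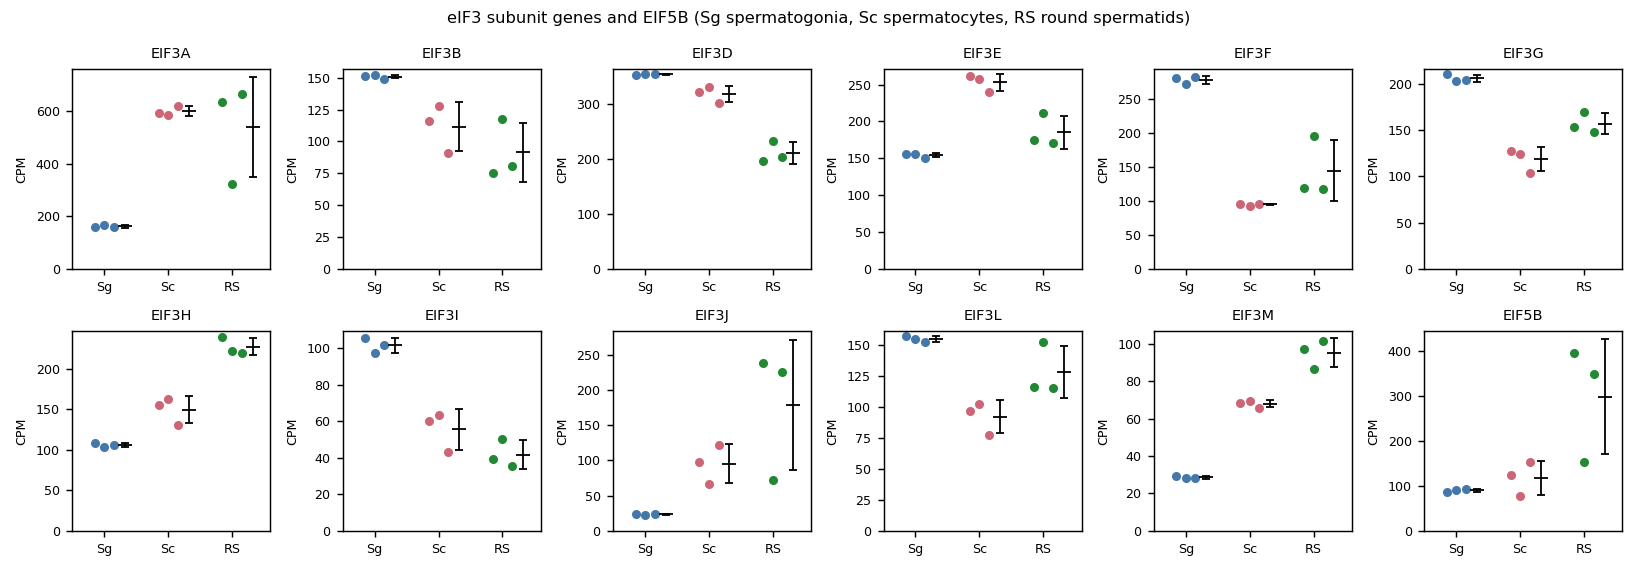
CPM (y axis, from 0) of the 11 eIF3 genes and, in the last panel, EIF5B, with 1 point per library and the mean ± SD of 3 libraries per stage. EIF3J in round spermatids splits into 238 and 226 CPM for libraries 1 and 3 and 71.6 CPM for library 2, whereas EIF3H has 3 separate steps on this scale.

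The subunits of eIF4F moved in opposite directions in round spermatids against spermatocytes, EIF4G3 falling and EIF4G1 and EIF4A1 rising. EIF4G3 (chr6:79022222-79382062), a scaffold whose mutation in mice stops spermatocytes before they leave meiotic prophase, had 624, 662 and 631 CPM in spermatogonia, 1191, 1654 and 1518 CPM in spermatocytes and 261, 239 and 256 CPM in round spermatids. The stages did not overlap, and spermatocytes were 2.28-fold above spermatogonia (log2 fold change 1.19 ± 0.129, adjusted p = 1.82e-05). Round spermatids were 5.77-fold below spermatocytes (log2 fold change -2.53 ± 0.134, adjusted p = 4.74e-08) and 2.54-fold below spermatogonia (log2 fold change -1.34 ± 0.129, adjusted p = 4.18e-06). EIF4G1 (chr13:122203488-122225371), the major scaffold of most cells, had 109, 109.9 and 109.7 CPM in spermatogonia, 55.6, 49.9 and 67.6 CPM in spermatocytes and 151, 218 and 163 CPM in round spermatids. It ran opposite to EIF4G3, lower in spermatocytes than in spermatogonia (log2 fold change -0.92 ± 0.158, adjusted p = 3.88e-04) and 3.07-fold higher in round spermatids than in spermatocytes (log2 fold change 1.62 ± 0.160, adjusted p = 4.30e-06). EIF4G2 (DAP5), which does not bind eIF4E, had 740.5, 745 and 758 CPM in spermatogonia, 1161, 1455 and 1261 CPM in spermatocytes and 1182, 1494 and 1295 CPM in round spermatids. EIF4G2 was higher in spermatocytes than in spermatogonia (log2 fold change 0.79 ± 0.125, adjusted p = 2.30e-04), though not called on TPM at 0.26 (adjusted p = 0.378), and round spermatids overlapped with spermatocytes. Within the TPM of the 3 scaffolds, EIF4G3 made up 39.7 ± 0.813% in spermatogonia, 47.7 ± 2.01% in spermatocytes and 12.998 ± 1.85% in round spermatids, EIF4G2 55.6 ± 0.783% in spermatogonia, 50.9 ± 1.99% in spermatocytes and 80.8 ± 1.29% in round spermatids, and EIF4G1 4.71 ± 0.0437% in spermatogonia, 1.33 ± 0.285% in spermatocytes and 6.23 ± 0.614% in round spermatids.

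EIF4A1 (chr12:52868479-52874248), a DEAD-box helicase of eIF4F, had 133, 129 and 128 CPM in spermatogonia, 61.2, 57.5 and 59.7 CPM in spermatocytes and 448, 613 and 431 CPM in round spermatids. Spermatocytes were the lowest, 2.19-fold below spermatogonia (log2 fold change -1.13 ± 0.136, adjusted p = 3.62e-05), and round spermatids 8.35-fold above spermatocytes (log2 fold change 3.06 ± 0.145, adjusted p = 2.33e-08) and 3.82-fold above spermatogonia (log2 fold change 1.93 ± 0.139, adjusted p = 5.14e-07). EIF4A2 (chr13:124582822-124589296), its close paralogue, had 149, 143 and 140.03 CPM in spermatogonia, 269, 238 and 188 CPM in spermatocytes and 441, 422 and 454 CPM in round spermatids. It rose at each step, with log2 fold changes of 0.69 ± 0.129 (adjusted p = 7.53e-04) in spermatocytes against spermatogonia and 0.92 ± 0.130 (adjusted p = 6.75e-05) in round spermatids against spermatocytes. The first step was lost without normalization factors, on TPM and with the spermatogonia libraries summed (log2 fold change 0.15 to 0.62, adjusted p 0.0575 to 0.515). EIF4A3, the helicase of the exon junction complex, had 45.8, 46.03 and 45.8 CPM in spermatogonia, 34.6, 32.3 and 29.8 CPM in spermatocytes and 57.4, 75.7 and 58.1 CPM in round spermatids. It was lowest in spermatocytes, with a log2 fold change of -0.51 ± 0.127 (adjusted p = 0.00437) against spermatogonia, a call lost with median-ratio factors, without the filter on low counts, with DESeq2, with the spermatogonia libraries summed, with the mitochondrial genome left out and with the 50 most abundant genes left out (log2 fold change -0.58 to -0.27, adjusted p 0.0573 to 0.139). EIF4A3 in round spermatids was above spermatocytes (log2 fold change 0.98 ± 0.128, adjusted p = 3.75e-05) and, on counts, above spermatogonia (log2 fold change 0.47 ± 0.127, adjusted p = 0.00565), but that last difference had the other sign on TPM, at -0.15 (adjusted p = 0.616). Within the TPM of the 3 helicases EIF4A1 made up 35.3 ± 0.0990% in spermatogonia, 15.5 ± 2.19% in spermatocytes and 43.9 ± 5.01% in round spermatids. Reads common to EIF4A1 and EIF4A2 may have been divided between them.

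Both RNA-binding helpers of eIF4A changed less. EIF4B averaged 267 ± 1.51 CPM in spermatogonia, 369.9 ± 7.86 CPM in spermatocytes and 306 ± 4.86 CPM in round spermatids, and EIF4H 163 ± 3.89 CPM in spermatogonia, 234 ± 5.17 CPM in spermatocytes and 266 ± 3.08 CPM in round spermatids. Each was higher in spermatocytes than in spermatogonia, with log2 fold changes of 0.47 ± 0.0853 (adjusted p = 5.89e-04) for EIF4B and 0.52 ± 0.0855 (adjusted p = 3.09e-04) for EIF4H. On TPM neither was higher: EIF4B was -0.05 (adjusted p = 0.825) and EIF4H -0.0051 (adjusted p = 0.986). Without normalization factors they were 0.05 (adjusted p = 0.692) and 0.10 (adjusted p = 0.420). Round spermatids had slightly less EIF4B than spermatocytes (log2 fold change -0.27 ± 0.0851, adjusted p = 0.0127). That call held in 14 of 20 alternatives and was 0.19 (adjusted p = 0.131), with the other sign, without normalization factors. EIF4H was not called there.

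**Figure D5:**
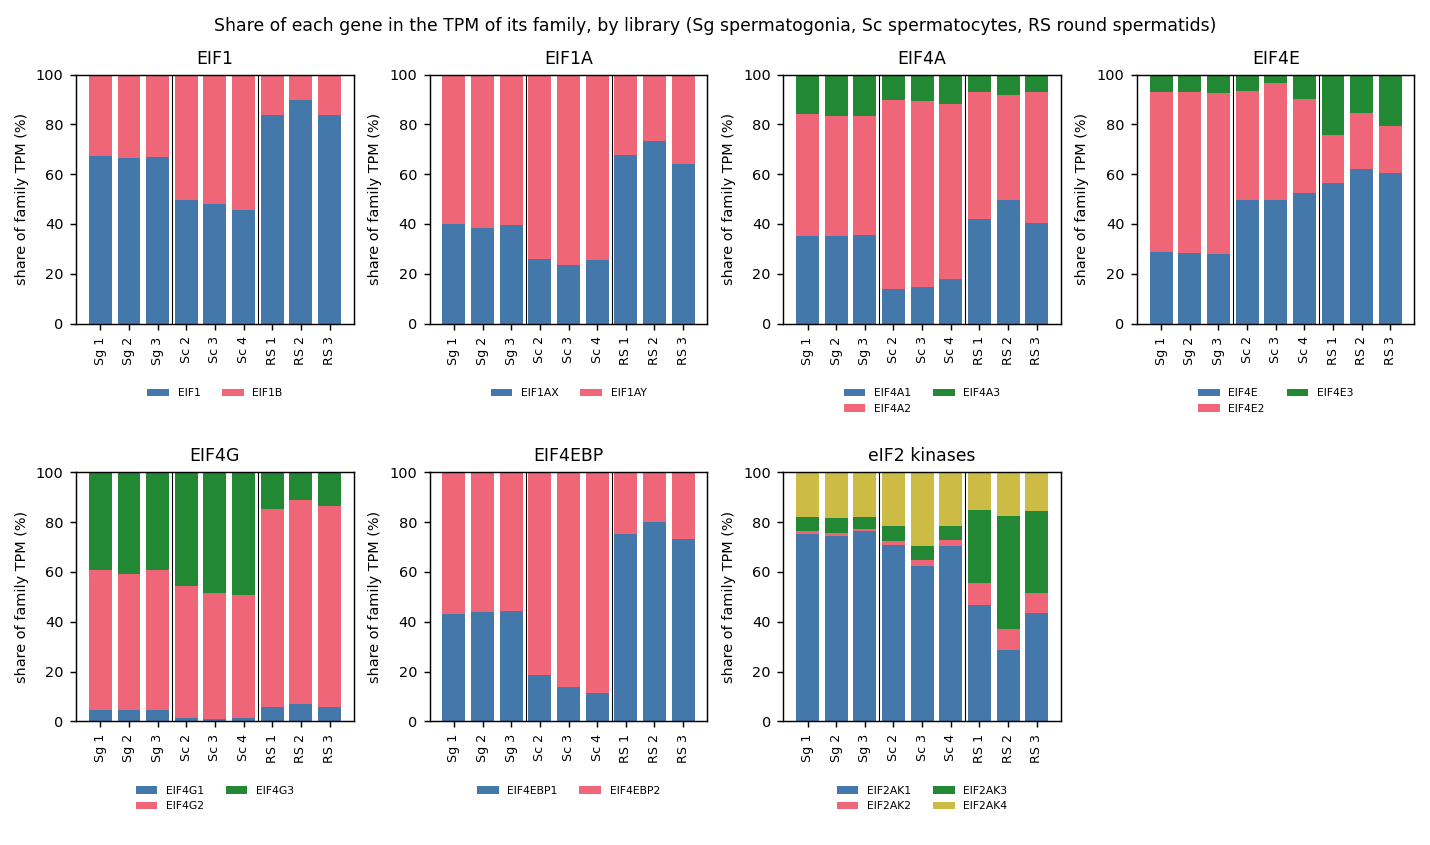
Share (y axis, percent) of each gene in the summed TPM of its family, stacked for each of the 9 libraries, for EIF1, EIF1A, EIF4A, EIF4E (EIF4E1B is in the sum but not drawn), EIF4G, EIF4EBP and the eIF2 kinases. EIF4G3 falls to 12.998 ± 1.85% in round spermatids, against 47.7 ± 2.01% in spermatocytes, and EIF4EBP1 reaches 76.1 ± 3.47% in round spermatids, against 14.5 ± 3.69% in spermatocytes.

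Cap-binding genes also changed in proportion. EIF4E (chr8:121409633-121464467), the main cap-binding protein, had 46.5, 44.5 and 44.2 CPM in spermatogonia, 92.6, 84.9 and 84.4 CPM in spermatocytes and 142, 159 and 149 CPM in round spermatids. It stepped up with no overlap in CPM, with log2 fold changes of 0.95 ± 0.0952 (adjusted p = 1.05e-05) in spermatocytes against spermatogonia, where TPM gave 0.41 (adjusted p = 0.112), and 0.78 ± 0.0948 (adjusted p = 2.13e-05) in round spermatids against spermatocytes. EIF4E2 (4EHP), which binds the cap without recruiting eIF4G and represses translation, had 76.1, 74.3 and 75.6 CPM in spermatogonia, 60.1, 58.6 and 45.2 CPM in spermatocytes and 35.7, 41.8 and 34.4 CPM in round spermatids. It went down, with log2 fold changes of -0.46 ± 0.131 (adjusted p = 0.00835) in spermatocytes against spermatogonia and -0.55 ± 0.131 (adjusted p = 0.00278) in round spermatids against spermatocytes. The first was lost with median-ratio factors, without the filter on low counts, with DESeq2, with only the compared stages fitted, with the spermatogonia libraries summed, with the mitochondrial genome left out and with the 50 most abundant genes left out (log2 fold change -0.53 to -0.22, adjusted p 0.0703 to 0.220), and the second without normalization factors (-0.07, adjusted p = 0.682). EIF4E3 had 5.65, 5.56 and 5.99 CPM in spermatogonia, 6.19, 3.08 and 8.13 CPM in spermatocytes and 32.02, 20.8 and 26.3 CPM in round spermatids. Spermatocytes and spermatogonia overlapped for EIF4E3, and round spermatids were 4.54-fold above spermatocytes (log2 fold change 2.18 ± 0.299, adjusted p = 5.54e-05). EIF4E made up 28.3 ± 0.520% in spermatogonia, 50.5 ± 1.47% in spermatocytes and 59.6 ± 2.98% in round spermatids of the TPM of these 3 genes and EIF4E1B together, and EIF4E2 64.6 ± 0.293% in spermatogonia, 42.9 ± 4.43% in spermatocytes and 20.2 ± 1.82% in round spermatids.

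Among the genes of proteins that hold eIF4E back, EIF4EBP1 had the largest single change of the 45 genes, in round spermatids against spermatocytes. EIF4EBP1 (4E-BP1, chr15:48423001-48443373) had 9.94, 10.6 and 10.7 CPM in spermatogonia, 3.14, 2.03 and 1.86 CPM in spermatocytes and 45.7, 62.5 and 41.8 CPM in round spermatids. It was 4.44-fold lower in spermatocytes than in spermatogonia (log2 fold change -2.15 ± 0.220, adjusted p = 1.24e-05). Round spermatids were 21.3-fold above spermatocytes (log2 fold change 4.41 ± 0.236, adjusted p = 4.92e-08) and 4.80-fold above spermatogonia (log2 fold change 2.26 ± 0.210, adjusted p = 3.19e-06), and the values without round spermatids 2 were 4.22 (adjusted p = 1.33e-07) and 2.07 (adjusted p = 6.26e-06). Its paralogue EIF4EBP2 was nearly level, with 40.8, 42.4 and 42.1 CPM in spermatogonia, 42.96, 40.2 and 45.6 CPM in spermatocytes and 47.3, 49.2 and 47.9 CPM in round spermatids, and was called in none of the 3 comparisons. EIF4EBP1 made up 43.8 ± 0.516% in spermatogonia, 14.5 ± 3.69% in spermatocytes and 76.1 ± 3.47% in round spermatids of the TPM of the pair. EIF4ENIF1 (4E-T), which takes eIF4E into the nucleus and into P-bodies, had 149.8, 149.8 and 150.3 CPM in spermatogonia, 211, 251 and 245 CPM in spermatocytes and 91.9, 86.7 and 99.8 CPM in round spermatids. It was higher in spermatocytes than in spermatogonia (log2 fold change 0.65 ± 0.104, adjusted p = 2.55e-04), and the call was lost without normalization factors (0.23, adjusted p = 0.0674) and on TPM (0.12, adjusted p = 0.576). It was 2.54-fold lower in round spermatids than in spermatocytes (log2 fold change -1.34 ± 0.105, adjusted p = 7.29e-07). Round spermatids held the highest sums of somatic markers as well, with Sertoli markers at 194 to 239 CPM against 25.8 to 39.7 CPM in spermatocytes, and their part in the EIF4EBP1 and EIF4A1 values was not tested.

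Of 16 genes of the mTOR pathway upstream and beside the 4E-BPs, 13 were tested. In spermatocytes against spermatogonia 6 were higher and 4 lower, in round spermatids against spermatocytes 7 and 6, and in round spermatids against spermatogonia 5 and 6. MTOR, the kinase itself, averaged 97.4 ± 6.71 CPM in round spermatids and 514 ± 96.5 CPM in spermatocytes (log2 fold change -2.40 ± 0.146, adjusted p = 1.15e-07). RHEB, the GTPase that activates it, averaged 259 ± 122 CPM in round spermatids and 74.2 ± 19.8 CPM in spermatocytes (log2 fold change 1.80 ± 0.338, adjusted p = 5.60e-04). RPTOR, the scaffold that presents the 4E-BPs to mTOR, averaged 20.8 ± 1.42 CPM in spermatocytes and 77.004 ± 0.470 CPM in spermatogonia (log2 fold change -1.89 ± 0.114, adjusted p = 8.05e-07), and RICTOR, of the other mTOR complex, 112 ± 23.6 CPM in spermatocytes and 28.1 ± 1.84 CPM in spermatogonia (log2 fold change 1.995 ± 0.158, adjusted p = 2.61e-06). Against spermatogonia TSC2, an inhibitor of RHEB, averaged 70.003 ± 11.7 CPM in round spermatids and 255 ± 3.25 CPM in spermatogonia (log2 fold change -1.86 ± 0.141, adjusted p = 7.42e-07). The mRNAs of the pathway thus moved in both directions.

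EIF5A2 (chr13:109510815-109530450), an isoform of the hypusine-bearing factor eIF5A, was scarce in spermatogonia and had 1.83, 1.88 and 1.83 CPM in spermatogonia, 9.06, 10.8 and 9.62 CPM in spermatocytes and 11.8, 9.13 and 12.7 CPM in round spermatids. It was 5.32-fold higher in spermatocytes than in spermatogonia (log2 fold change 2.41 ± 0.162, adjusted p = 1.25e-06), and round spermatids overlapped with spermatocytes. Of 11 genes of hypusine and polyamine synthesis 9 were tested, with 1 higher and 7 lower in spermatocytes against spermatogonia, 7 and 2 in round spermatids against spermatocytes, and 4 and 2 in round spermatids against spermatogonia. DHPS, which starts the hypusine modification, averaged 3.43 ± 1.47 CPM in round spermatids and 7.35 ± 1.10 CPM in spermatocytes (log2 fold change -1.10 ± 0.257, adjusted p = 0.00250). That call was lost without normalization factors (-0.60, adjusted p = 0.0954). DOHH, which completes it, averaged 2.91 ± 0.354 CPM in spermatocytes and 8.77 ± 0.610 CPM in spermatogonia (log2 fold change -1.59 ± 0.224, adjusted p = 1.07e-04). SMS, the X-linked spermine synthase, averaged 52.9 ± 17.9 CPM in round spermatids and 7.15 ± 1.59 CPM in spermatocytes (log2 fold change 2.89 ± 0.267, adjusted p = 2.53e-06), and AZIN1, an antizyme inhibitor, 44.7 ± 3.46 CPM in spermatocytes and 22.2 ± 0.799 CPM in spermatogonia (log2 fold change 1.01 ± 0.115, adjusted p = 2.51e-05), the last not called on TPM at 0.48 (adjusted p = 0.0591). OAZ3, the antizyme of spermatids, averaged 653 ± 72.9 CPM in round spermatids and 234 ± 8.90 CPM in spermatogonia (log2 fold change 1.48 ± 0.356, adjusted p = 0.00299). The call did not hold on TPM (0.86, adjusted p = 0.0718) and with the spermatogonia libraries summed (1.41, adjusted p = 0.0673).

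Genes that work next to the initiation factors gave the following. Of 11 poly(A)-binding protein and partner genes 7 were tested, with 3 higher and 2 lower in spermatocytes against spermatogonia, 2 and 4 in round spermatids against spermatocytes, and 2 and 1 in round spermatids against spermatogonia. PABPC1, the main cytoplasmic poly(A)-binding protein and a partner of eIF4G, averaged 3714 ± 529 CPM in round spermatids and 8832 ± 816 CPM in spermatocytes (log2 fold change -1.25 ± 0.134, adjusted p = 8.25e-06). PAIP1, which links it to eIF4A, averaged 654 ± 72.7 CPM in spermatocytes and 140.1 ± 4.29 CPM in spermatogonia (log2 fold change 2.22 ± 0.176, adjusted p = 2.64e-06), so that it peaked in spermatocytes, while PABPC4 averaged 68.8 ± 13.7 CPM in round spermatids and 10.6 ± 2.13 CPM in spermatocytes (log2 fold change 2.70 ± 0.183, adjusted p = 2.46e-07). All 12 genes of cap binding and repression were tested, with 5 higher and 5 lower in spermatocytes against spermatogonia, 5 and 5 in round spermatids against spermatocytes, and 5 and 5 in round spermatids against spermatogonia. DDX6, a helicase of repressed mRNPs, averaged 72.4 ± 2.74 CPM in round spermatids and 344 ± 39.96 CPM in spermatocytes (log2 fold change -2.25 ± 0.111, adjusted p = 2.97e-08), and CTIF, which links the nuclear cap-binding complex to eIF3, 36.3 ± 2.76 CPM in round spermatids and 1.72 ± 0.373 CPM in spermatocytes (log2 fold change 4.39 ± 0.171, adjusted p = 7.23e-09).

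Elongation and termination genes (10 of 12 tested) had 3 higher and 5 lower in spermatocytes against spermatogonia, 6 and 1 in round spermatids against spermatocytes, and 6 and 2 in round spermatids against spermatogonia. EEF1D, an exchange factor for the elongation factor eEF1A, averaged 194 ± 5.67 CPM in round spermatids and 23.8 ± 6.72 CPM in spermatocytes (log2 fold change 3.03 ± 0.194, adjusted p = 1.59e-07). ETF1, the release factor that reads stop codons, averaged 170.1 ± 1.67 CPM in spermatocytes and 85.6 ± 1.10 CPM in spermatogonia (log2 fold change 0.99 ± 0.0875, adjusted p = 4.97e-06), and was not called on TPM at 0.45 (adjusted p = 0.0784). For mitochondrial initiation and elongation all 9 genes were tested, with 6 higher and 1 lower in spermatocytes against spermatogonia, 1 and 6 in round spermatids against spermatocytes, and 2 and 4 in round spermatids against spermatogonia. MTIF2, the mitochondrial counterpart of the tRNA-carrying factor, averaged 19.7 ± 1.08 CPM in spermatocytes and 8.28 ± 0.471 CPM in spermatogonia (log2 fold change 1.25 ± 0.149, adjusted p = 3.33e-05), and GFM2, a mitochondrial recycling factor, 5.85 ± 0.673 CPM in round spermatids and 17.9 ± 2.61 CPM in spermatocytes (log2 fold change -1.61 ± 0.149, adjusted p = 2.50e-06).

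By abundance in TPM, EIF1 led with a mean of 1038 over the 9 libraries, ahead of EIF4G2 at 505, EIF3J at 483 and EIF1B at 442. EIF3J had that place on the TPM scale only. In CPM it averaged 23.3 in spermatogonia and 179 in round spermatids, below EIF3A at 163 and 542. The order depended on the stage: EIF1 averaged 770.5 ± 30.1 TPM in spermatogonia, 630.5 ± 23.9 TPM in spermatocytes and 1714 ± 902 TPM in round spermatids, and EIF1B 379 ± 7.52 TPM in spermatogonia, 687 ± 32.1 TPM in spermatocytes and 261 ± 51.5 TPM in round spermatids, and EIF1B was the higher of the pair in each spermatocyte library. In spermatocytes the mean TPM of EIF4G2, EIF4G3 and EIF3J lay between 491 and 533, within the spread of EIF3J (SD 167). The least abundant tested gene was EIF2AK2 at 1.80 TPM. All 46 genes together made up 5487 ± 32.2 TPM in spermatogonia, 5384 ± 234 TPM in spermatocytes and 6409 ± 1914 TPM in round spermatids (SD, n = 3 each). Round spermatids 1, 2 and 3 gave 5473, 8611 and 5143 TPM, so only library 2 lay far above the other stages. EIF1 alone was 14.04, 11.7 and 25.6% of the sum in spermatogonia, spermatocytes and round spermatids. In CPM, which are scaled by the TMM factors, the same sum was 5804 ± 27.6 in spermatogonia, 8062 ± 376 in spermatocytes and 7981 ± 202 in round spermatids, so the order of spermatocytes and spermatogonia depended on the scale. No test was made on these sums.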

How the data were processed

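The labels describe total RNA from testis, sequenced in paired reads from a directional library kit. Per the submitters' processing notes, bcl2fastq was used and the build was Sscrofa11.1; which aligner, quantifier and annotation served, and whether counting used strand, is not given in the sources used here, so overlapping and antisense genes are uncertain. The authors deposited estimated counts per gene and TPM per gene, 1 column per library. The deposited TPM columns leave out 3.19 to 11.8% of the full scale. Of 15 library columns 9 were used and 6 were not used. Symbols were matched for 14749 of 22342 identifiers, and chromosomes for 13685, by symbol in a RefSeq table of Sscrofa11.1. Coordinates are those of that table, which lists EIF2B4, EIF3B and EIF4B as long non-coding RNA and the other initiation factor genes as protein-coding.

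Estimated counts were rounded, filtered with filterByExpr, scaled with TMM factors (0.774 to 1.26) and fitted over all 9 libraries with the quasi-likelihood test of edgeR 4.0.16 under R 4.3.3 (common dispersion 0.0316). Adjusted p-values are Benjamini-Hochberg over 16802 genes, and the standard error (SE) is the size of the log2 fold change over the square root of F. CPM are counts over the TMM-scaled library size and compare a gene between libraries; TPM compare genes. Alternatives used DESeq2 1.42.0 and limma 3.58.1 on log2(TPM + 1) and log2(TPM + 0.1). On simulated counts, 59, 73 and 66% of 2-fold and 95, 95 and 96% of 4-fold changes were recovered for spermatocytes against spermatogonia, round spermatids against spermatocytes and round spermatids against spermatogonia, over 15980, 15354 and 15978 genes, and 6.10, 8.70 and 5.26% of the calls were false. Only 100 genes were changed at each fold, evenly up and down, with the same dispersion in every stage. In the data 73.4 to 79.2% of genes were called and the stages differed in scatter, so these rates need not hold there. The spermatogonia libraries differed by more than counting noise (median chi-square 0.801 to 0.861, against 0.455 by counting alone) and were kept as 3 libraries. So small a scatter cannot show whether they are separate animals or repeat preparations. If they are repeat preparations, the p-values against spermatogonia would be too small. Those of round spermatids against spermatocytes could be too small as well, because the fit over all 9 libraries shares its estimate of spread. With only the compared stages fitted, 18 genes were higher and 16 lower in that comparison, against 19 and 19 in the main fit. A fit with the spermatogonia libraries summed to 1 sample is given beside the counts. The members and gene lists were chosen with earlier results of these data known. Full values were given for the 4 called genes with the largest rise and fall per comparison at a mean of at least 1 TPM, the most abundant gene of each role, the paralogue families and the X-linked gene; in companion lists up to 2 per direction were eligible. Further initiation factor genes were named because the symbol rule fixes them.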

Additional observations from a re-analysis of the deposited data

How the results depend on the processing

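Of 112 called results of the 45 genes under 20 alternatives each (2240 values), 2019 kept direction and call, 205 lost the call and 16 reversed, in 10 results. Over 16193 genes the deposited counts and TPM differed only by 1 factor per gene and 1 per library (largest log deviation 3.73e-14). Apart from the added 1 or 0.1, gene length thus cancels in a fold change on TPM. On log2(TPM + 1) and log2(TPM + 0.1) the reversed values were, in spermatocytes against spermatogonia, -0.091 and -0.093 for EIF2B4, -0.033 and -0.033 for EIF3H, -0.054 and -0.055 for EIF4B and -0.0051 and -0.0052 for EIF4H, and in round spermatids against spermatogonia -0.352 and -0.355 for EIF3E and -0.148 and -0.151 for EIF4A3. Without normalization factors, round spermatids against spermatocytes gave 0.124 for EIF2B4, 0.025 for EIF3E, 0.072 for EIF3I and 0.189 for EIF4B. Of 85 called results of genes beside the initiation factors (1699 values), 31 values lost the call and 3 reversed: 0.197 for OAZ2 without factors in round spermatids against spermatocytes, and -0.130 and -0.131 for PAIP2 on TPM in round spermatids against spermatogonia. The causes were not tested. For spermatocytes against spermatogonia, 23 genes were higher in the edgeR fit, 12 without normalization factors, 8 on log2(TPM + 1) and 8 on log2(TPM + 0.1), and 14 with the spermatogonia libraries summed, which leaves fewer samples. The 13 lower genes became 16 without normalization factors, 15 on log2(TPM + 1), 8 without the filter on low counts, 8 without genes of the mitochondrial genome and 8 without the 50 most abundant genes, the last chosen after seeing the data. For round spermatids against spermatocytes, 19 lower genes became 9 without normalization factors. The causes of these shifts in counts were not tested. Over all genes the share of calls that were higher was 54.0%, but 65.7% without factors, in round spermatids against spermatocytes, and 49.9%, but 34.9% on log2(TPM + 1) in round spermatids against spermatogonia; the median of all genes in spermatocytes against spermatogonia ran from -0.74 to -0.09. Leaving out 1 library at a time gave 23 to 25 higher and 12 to 15 lower in spermatocytes against spermatogonia, 18 to 21 and 17 to 19 in round spermatids against spermatocytes, and 21 to 24 and 12 to 17 in round spermatids against spermatogonia. After rescaling to the genes of the table the summed TPM was 5678 (deposited 5487) in spermatogonia, 5581 (deposited 5384) in spermatocytes and 7116 (deposited 6409) in round spermatids. Deviations of same-numbered libraries from their stage means had correlations of -0.116 to 0.042, and those of differently numbered libraries -0.151 to 0.144. With 3 libraries per stage, and spermatogonia libraries so alike, this cannot show whether the numbers mark shared animals. With the replicate block the counts were 23 higher and 12 lower, 17 higher and 18 lower and 21 higher and 16 lower in the 3 comparisons. No limit of depth was tested.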
